A study of Mus musculus with 6 samples.

Results

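The genes described here act in the DNA damage checkpoint and in DNA repair. They were chosen by symbol alone: the Fanconi anemia genes (*Fanca* to *Fancm*), *Brca1*, *Brca2* and their partners, the *Rad50* to *Rad54* series, *Rad18*, the *Xrcc* and *Ercc* genes, *Xpa*, *Xpc*, the *Msh* and *Mlh* genes, *Parp1* to *Parp3*, the kinases *Atm*, *Atr*, *Chek1*, *Chek2* and *Prkdc*, and *Blm*, *Wrn*, *Exo1*, *Mre11a* and *Nbn*. The rule found 59 genes among the 23235 entries of the deposited RNA-seq table. *Rad54l2*, a helicase gene related to *Rad54l* by sequence, entered by its name. It is kept apart where genes are grouped by role, but is part of the 59 genes and of the numbers for the whole set.

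Cells face broken, crosslinked and chemically altered DNA, and each kind of lesion has its own repair route. Kinases of the checkpoint sense damage and hold the cell cycle, while recombination, end joining, mismatch, excision and crosslink repair remove it. Mouse ESCs cycle fast with a short G1 phase and are known for high levels of repair proteins.

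RNA came from E14Tg2a, a single mouse ESC line grown in serum medium, at passages 37 to 40. Pluripotent ESCs kept with leukemia inhibitory factor (LIF) gave 3 samples. Neuronal cells (NCs), which were LIF-free monolayers of the same line treated with 1 μM retinoic acid (RA) for 48 h, gave the other 3, and RNA for each sample was taken from 2 plates of 60 mm. The authors deposited 1 FPKM value per gene and condition, that is, fragments scaled to the length of the transcript and to the number of mapped fragments, estimated by Cuffdiff over the replicates, so no value here has an SD, and no test between ESCs and NCs could be made from these values.

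The identity of the cells was read from markers. All 7 pluripotency genes were at least 2-fold lower in NCs, with a summed level of 2111 FPKM in ESCs against 83.9 in NCs. Of 9 RA-response and neural precursor genes with a mean of at least 1 FPKM, 8 were at least 2-fold higher, and the list summed to 21.9 FPKM in ESCs against 624 in NCs. Of 7 neuron markers, 4 had a mean of at least 1 FPKM and 3 of these were at least 2-fold lower in NCs. *Tubb3* had 33.4 FPKM in ESCs against 7.54 in NCs, and the 7 summed to 47.2 and 12.9 FPKM. *Dcx*, under the limit of 1 FPKM, had 0.0140 and 0.334 FPKM. The name NC is used as the label of the condition. The extraembryonic endoderm list summed to 7.91 FPKM in ESCs against 20.02 in NCs, and the mesoderm list to 3.06 and 2.07 FPKM. In the endoderm list, 5 genes had a mean of at least 1 FPKM, and 4 of these were at least 2-fold higher in NCs. The fibroblast list summed to 19.3 and 40.5 FPKM, and its members went both ways: *Col1a2* had 3.47 and 23.3 FPKM, *Thy1* had 9.64 and 1.80 FPKM, and *Lum* was listed at 0 in ESCs. The part of such cells in the values below was not tested, and in bulk RNA fewer cells of a type and less RNA per cell cannot be told apart.

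Most of the repair genes had a somewhat lower level in NCs, and few differed strongly. A mean of at least 1 FPKM over both conditions was reached by 58 of the 59 genes, and the other is *Msh4*. Of these 58, 46 had the lower FPKM in NCs and 12 the higher. Their median log2 ratio of NC to ESC FPKM was -0.31, beside -0.04 over all 12784 genes with such a mean. The ratio lay below that of the median gene for 46 of the 58 (79.3%), and this position does not depend on how the conditions are scaled. Direction does: all FPKM of a condition add up to 770592 for ESCs but 628679 for NCs. Dividing by these totals adds 0.29 to every log2 ratio, which puts 14 of the 46 lower genes above 0. Among these 14 are *Mre11a*, *Nbn*, *Brca2*, *Xrcc3*, *Fancg*, *Fancl*, *Msh5*, *Ercc5*, *Ercc6*, *Ercc8*, *Xrcc1*, *Parp2* and *Parp3*, and for them only the values are given. The other 32 were lower under each of the scalings tried. Every one of these scalings raises all log2 ratios, so the 12 higher genes could not change direction, and their direction was not checked by them.

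At least 2-fold lower in NCs were 3 of the 58 genes (5.17%), *Msh6*, *Chek2* and *Ercc2*, where 9.93% of all genes were. At least 2-fold higher was *Ercc4* alone (1.72%), where 11.1% of all genes were. With FPKM divided by their totals, *Msh6* alone was at least 2-fold lower, and *Ercc4*, *Fancf* and *Xpa* were at least 2-fold higher. *Chek2* (-0.96) and *Ercc2* (-0.83) then no longer reached the limit on the log2 scale. The shares of all genes given above are for the deposited values. They do not apply to the counts under this scaling, for which no such share was computed. The set was narrower as well: the middle 50 percent of its log2 ratios ran from -0.49 to -0.10, and that of all genes from -0.44 to 0.41. With a limit of 1.5-fold, 9 genes were lower (15.5%, against 18.8% of all genes) and 3 were higher, against 19.3% of all genes. The called gene nearest to the 2-fold limit was *Ercc2*, 2.18-fold lower, and the nearest that did not reach it were *Parp1*, 1.95-fold lower, and *Fancf*, 1.84-fold higher.

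**Figure D1:**
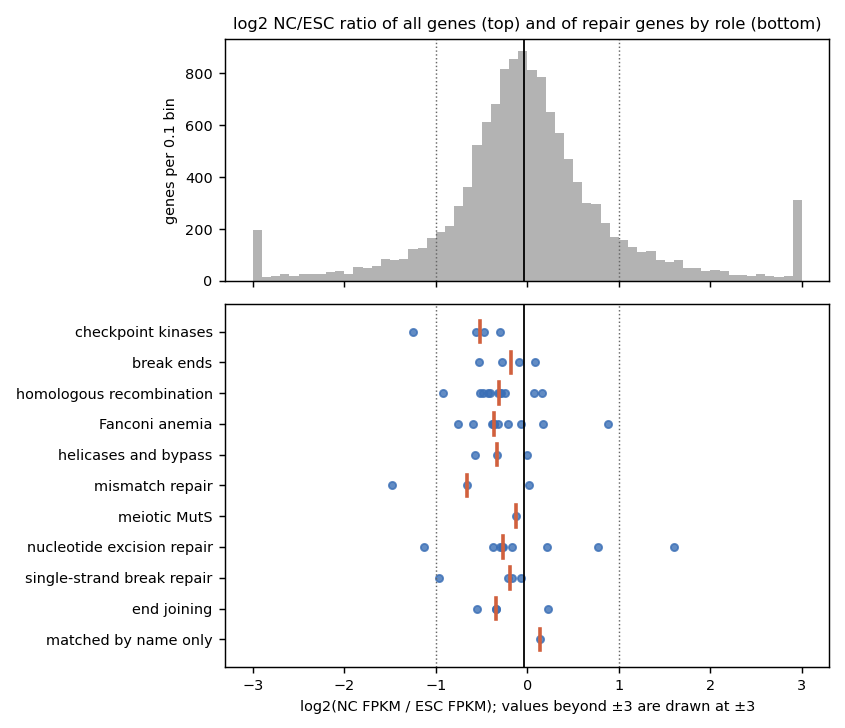
Top, number of genes with a mean of at least 1 FPKM per 0.1 of log2(NC FPKM / ESC FPKM). Bottom, the same ratio for 55 of the 58 repair genes, 1 point per gene, by role, with the median of all genes of each role as a short bar; the long line is the median of all genes (-0.04) and the dotted lines are the 2-fold limits, which 4 repair genes pass.

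The order of the levels was kept for the most part, with a Spearman's rho of 0.95 between conditions across the 58 genes, which are not independent replicates (0.88 across all genes). Genes with a higher mean level tended to have the lower ratio (rho of -0.46 across the 58 genes and -0.17 across all genes). Both numbers are computed from the same FPKM values and are given as a description.

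**Figure D2:**
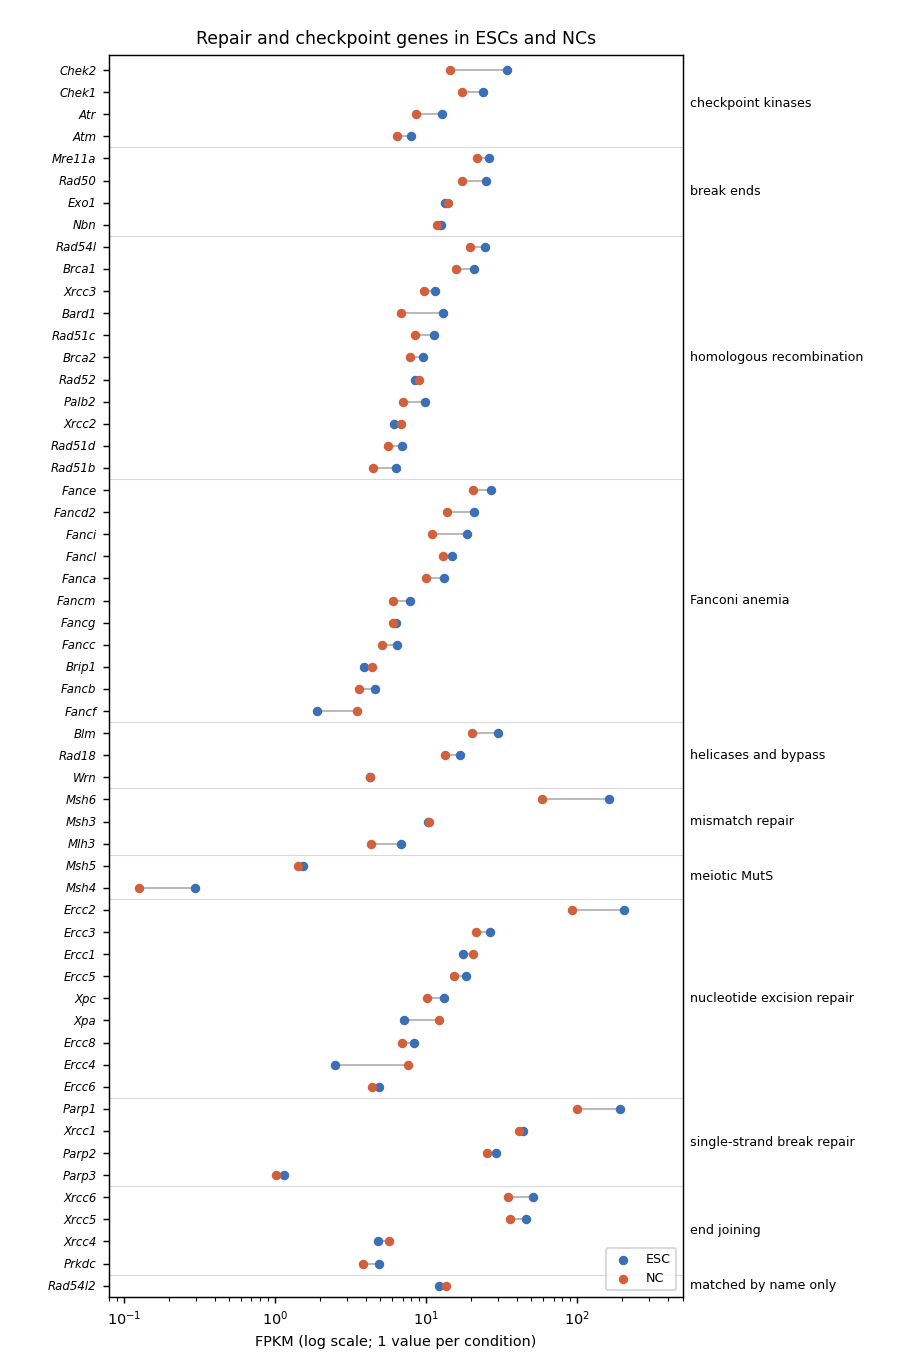
FPKM of 56 of the 59 genes in ESCs (blue) and NCs (orange) on a log axis, by role and, within a role, in order of mean level, with 1 pooled value per condition and no error bars. *Msh6*, *Chek2* and *Ercc2* show the widest gaps to the left among expressed genes and *Ercc4* the widest to the right, from 2.50 to 7.58 FPKM.

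The promoters of the set were read for short words that they share. E2F factors drive many genes of S phase and bind words of the type searched here. RefSeq promoter sequences of GRCm38.p6, from 250 bases before to 50 bases after the start of transcription, were at hand for 45 of the 59 genes. The E2F words searched on either strand were TTGGCGC, next to it the variant TTCCCGC, then the related word TTGCCGC, and as the last one TTCGCGC. At least 1 of these 4 stood in 23 of the 45 promoters (51.1%). The share was 10.9% over the 27025 genes with a promoter sequence and 20.3% over those with a mean of at least 1 FPKM. In the 250 bases before the start alone, such a word stood in 17 of the 45 promoters (37.8%). The shares were then 9.01% over the 27025 genes and 17.0% over those with a mean of at least 1 FPKM. Fanconi anemia genes held such a word in 6 of 10 promoters, recombination genes in 5 of 9 and checkpoint kinases in 3 of 4, and the single-strand break repair genes in 0 of 4.

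These windows are from the genes past the 1.5-fold limit that hold such a word. Capitals mark the E2F word, each line is 30 bases written 5′ to 3′ on the strand of the gene, and the coordinates are of GRCm38.p6.
Chek2 (plus strand, chr5:110839820-110839849): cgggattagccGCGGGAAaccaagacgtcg
Msh6 (plus strand, chr17:87975055-87975084): tcctcccgactTTCCCGCcagcggcggccg
Ercc2 (plus strand, chr7:19381914-19381943): gccatgcgcacGCGCCAAttttccgattgg
Bard1 (minus strand, chr1:71103162-71103191): cgccgctcagtTTCCCGCtcaggaagtttg
Fanci (plus strand, chr7:79392345-79392374): cgtggagtagaGCGGGAAttttggaaggat
Fancf (minus strand, chr7:51862370-51862399): gttcattttcaGCGCCAAtgtgccccggaa
The word GCGGGAA is TTCCCGC on the opposite strand, and GCGCCAA is likewise TTGGCGC. The word began 152 bases before the start of transcription in *Chek2*, 92 in *Ercc2*, 208 in *Bard1* and 121 in *Fancf*, and 16 and 18 bases after it in *Msh6* and *Fanci*. In *Ercc2* and *Fancf* the E2F word runs into a CCAAT word. No E2F word stood in the windows of *Ercc4*, *Parp1*, *Xpa* or *Mlh3*. Genes past the 1.5-fold limit that had no promoter sequence at hand, such as *Fancd2*, could not be read.

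Ratios were also set out by the word. Among the genes that passed the filter, the 23 with an E2F word had a median log2 ratio of -0.36, and the 21 without had -0.32. Below the median gene were 17 of the 23 (73.9%) and 19 of the 21 (90.5%), which was not tested. Over all genes the medians with and without the word were both -0.04. The CCAAT word stood in 62.2% of the repair promoters, in 43.5% of those of genes with a mean of at least 1 FPKM and in 41.1% of all. TTTGAA or TTCGAA, the CHR word of genes of late cell cycle, stood in 11.1% against 15.5% and 21.7%, and AGGTCA or GGGTCA, the hexamer of RA response elements, in 26.7% against 28.2% and 30.1%. A match is a run of letters and not a measured site.

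**Figure D3:**
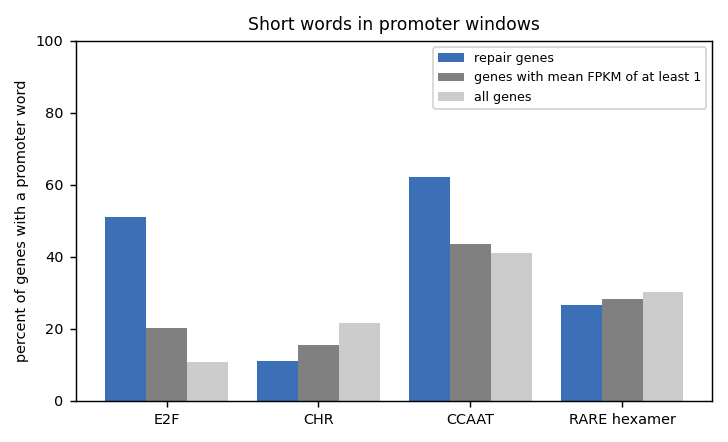
Percent of genes whose promoter window holds each word on either strand, for the 45 repair genes with a sequence (blue), the genes with a mean of at least 1 FPKM (dark grey) and all 27025 genes (light grey). For E2F the bars stand at 51.1%, 20.3% and 10.9%.

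The checkpoint kinases all had ratios below that of the median gene. *Chek2* (chromosome 5, 110839979 to 110874145), which encodes the kinase CHK2 downstream of ATM, had 34.3 FPKM in ESCs against 14.4 in NCs. From the fragments behind these values, a 95% interval that covers counting error only put the 2.39-fold difference between 2.27 and 2.51. Its ratio was lower than that of all but 7.05% of genes, and it stood 9th of the 59 genes in ESCs and 20th in NCs. *Chek1*, the gene of the ATR effector kinase CHK1, had 24.0 and 17.2 FPKM, and was thus below *Chek2* in ESCs and above it in NCs. *Atr*, which responds to single-stranded DNA at stalled forks, was 1.47-fold lower (12.7 and 8.65 FPKM). *Atm*, which responds to broken ends, had the lowest level of these kinases in both conditions, 7.92 and 6.44 FPKM, a log2 ratio of -0.30 that division by the totals brings to -0.0041.

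Of the 4 genes that process broken ends, 3 had a ratio below that of the median gene, and their median log2 ratio was -0.18. MRE11, RAD50 and NBN form the complex that binds DNA ends and activates ATM. *Mre11a* had 26.3 FPKM in ESCs against 21.7 in NCs, and *Nbn* had 12.6 and 11.9 FPKM. *Rad50* was 1.44-fold lower, at 25.1 and 17.3 FPKM. *Exo1*, whose nuclease lengthens the single-stranded tail and also serves mismatch repair, was 1.06-fold higher in NCs, at 13.3 and 14.0 FPKM.

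In homologous recombination a protein filament on single-stranded DNA finds the intact sister copy. Of the 12 genes of this route, 10 had a ratio below that of the median gene, none passed the 2-fold limit, and the median log2 ratio was -0.31. *Bard1*, the partner of BRCA1 in a ubiquitin ligase, had the lowest ratio of the route, with 13.1 FPKM in ESCs against 6.88 in NCs (1.90-fold lower). *Brca1* itself was 1.33-fold lower, at 20.96 and 15.7 FPKM. *Brca2*, which loads the filament, had 9.62 and 7.86 FPKM, and *Palb2*, which links BRCA1 to BRCA2, had 9.92 and 7.07 FPKM (1.40-fold lower).

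A family of paralogs assists the filament. Of these, *Rad51c* was 1.35-fold lower in NCs (11.4 and 8.45 FPKM), *Rad51b* 1.43-fold (6.38 and 4.45 FPKM) and *Rad51d* 1.23-fold (6.93 and 5.62 FPKM). *Xrcc3* had 11.6 and 9.77 FPKM. *Xrcc2*, a further paralog, was 1.12-fold higher in NCs, at 6.13 and 6.87 FPKM. *Rad54l*, a motor that remodels the filament, was 1.25-fold lower (24.5 and 19.6 FPKM), and *Rad52*, an annealing factor, was 1.05-fold higher (8.48 and 8.93 FPKM). *Rad54l2* had 12.3 and 13.5 FPKM.

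The Fanconi anemia route unhooks crosslinks between DNA strands. A core complex attaches ubiquitin to FANCD2 and FANCI, and the marked pair then calls nucleases to the site. Of the 11 genes of this route in the set, 9 had a ratio below that of the median gene. Among these 11, the lowest ratios were those of the substrates: *Fanci* was 1.69-fold lower in NCs (18.6 and 10.96 FPKM) and *Fancd2* 1.51-fold lower (20.9 and 13.8 FPKM). Of the exon bases of *Fanci*, 15.95% overlap *Polg* on the other strand, which had 68.2 FPKM in ESCs against 34.3 in NCs. The part of *Polg* in the *Fanci* values was not tested.

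Within the core complex, *Fance*, which bridges the core to FANCD2, was the highest at 26.8 and 20.6 FPKM, and *Fancl*, the ligase subunit, had 14.9 and 12.9 FPKM. *Fanca* had 13.2 and 10.1 FPKM, *Fancc* 6.42 and 5.13 FPKM, *Fancb* 4.63 and 3.60 FPKM, and each was 1.25-fold to 1.31-fold lower. *Fancg* had 6.29 and 6.02 FPKM. *Fancm*, a translocase that recruits the core, was 1.29-fold lower (7.86 and 6.08 FPKM). *Fancf*, an adaptor of the core encoded by a gene of small size, was the lowest in the complex and went the other way, with 1.91 FPKM in ESCs against 3.50 in NCs. The counting interval of its 1.84-fold higher value ran from 1.55 to 2.19, and an estimated 206 fragments lay behind the ESC value, the fewest of the 58 genes. *Brip1*, a helicase gene that binds BRCA1, had 3.90 and 4.40 FPKM, 1.13-fold higher.

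*Blm*, the RecQ helicase of Bloom syndrome, was 1.49-fold lower in NCs, at 29.97 and 20.1 FPKM. *Wrn*, the helicase of Werner syndrome, had 4.29 FPKM in ESCs against 4.30 in NCs. *Rad18*, a ubiquitin ligase that directs bypass of lesions at the fork, was 1.26-fold lower (16.9 and 13.4 FPKM).

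Among the roles as grouped here, mismatch repair had the lowest median log2 ratio, -0.66 over its 5 genes of the set. For 2 mismatch repair genes outside the symbol rule the median was -0.16. *Exo1*, counted with the genes of broken ends, had a log2 ratio of 0.08. MSH6 serves to see base mismatches and MSH3 to see loops, and MutL proteins such as MLH3 then act with a partner. *Msh6* (chromosome 17, 87975062 to 87990892) had 162 FPKM in ESCs against 58.5 in NCs, 2.78-fold lower, with a counting interval from 2.73 to 2.83. This is the lowest ratio of the 58 genes, with 5.55% of all genes below it. *Msh3*, in contrast, had 10.4 FPKM in ESCs against 10.47 in NCs. *Mlh3* was 1.58-fold lower (6.82 and 4.31 FPKM).

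The MutS genes of meiosis were near the floor of the set. *Msh5* had 1.54 FPKM in ESCs against 1.41 in NCs. *Msh4*, its partner, had 0.296 and 0.125 FPKM, from an estimated 67 and 28 fragments, and so lay under the limit of 1 FPKM. The counting interval of its ESC to NC ratio of 2.37 ran from 1.501 to 3.82.

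Nucleotide excision repair held both the gene with the highest ESC level of the set and the one with the highest ratio. XPC finds bulky lesions, the TFIIH helicases XPB (*Ercc3*) and XPD (*Ercc2*) open the DNA, XPA verifies, and XPG (*Ercc5*) and ERCC1-XPF (*Ercc1* and *Ercc4*) cut on each side. *Ercc2* (chromosome 7, 19382010 to 19395694) had 204 FPKM in ESCs against 93.5 in NCs, 2.18-fold lower, with a counting interval from 2.15 to 2.22. Of its exon bases 42.4% overlap genes on the other strand, *Klc3* and an antisense transcript, the largest such share in the set, and no source states that the counting used strand. *Klc3* had 19.4 and 15.5 FPKM, and its part in the *Ercc2* values was not tested. *Ercc3* had 26.5 and 21.5 FPKM (1.23-fold lower).

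*Ercc4* (chromosome 16, 13109684 to 13150617) had 2.50 FPKM in ESCs against 7.58 in NCs. It was 3.03-fold higher, with a counting interval from 2.81 to 3.27, and its ratio was above that of 94.1% of all genes. It moved from 55th of the 59 genes in ESCs to 38th in NCs. *Xpa* was the next of this route, at 7.15 and 12.3 FPKM, 1.71-fold higher with a counting interval from 1.54 to 1.91. *Ercc1*, the partner of *Ercc4*, was 1.16-fold higher (17.6 and 20.4 FPKM). These 3 were the genes of the route with a ratio above that of the median gene.

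The remaining genes of the route were *Xpc*, 1.30-fold lower (13.2 and 10.2 FPKM), *Ercc5* with 18.5 and 15.3 FPKM, and the factors of transcription-coupled repair. The latter clear lesions that stall RNA polymerase, and *Ercc8* had 8.33 and 6.94 FPKM, while *Ercc6* had 4.92 and 4.39 FPKM.

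Among the genes of single-strand break repair, *Parp1*, which encodes the main poly(ADP-ribose) polymerase that marks nicks, had 194 FPKM in ESCs against 99.7 in NCs. It was 1.95-fold lower, with a counting interval from 1.92 to 1.98, and took first place of the 59 genes in NCs from *Ercc2*. *Parp2*, the second enzyme, had 29.3 and 25.3 FPKM, and *Parp3* had 1.15 and 1.02 FPKM. *Xrcc1*, the scaffold that PARP1 recruits, had 43.8 and 41.6 FPKM.

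In end joining, Ku (*Xrcc5* and *Xrcc6*) caps the ends and calls the kinase DNA-PKcs (*Prkdc*). *Xrcc6* was 1.47-fold lower in NCs (51.5 and 35.1 FPKM) and *Xrcc5* 1.27-fold lower (45.8 and 36.2 FPKM). *Prkdc* was 1.27-fold lower as well, at 4.88 and 3.85 FPKM, and *Xrcc4*, the scaffold of the end-joining ligase, was 1.17-fold higher, at 4.84 and 5.68 FPKM.

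Many of these proteins work as fixed partners, so FPKM was compared within complexes, where the scaling of a condition cancels. Over 26 pairs of 17 complexes, the ratio of the partners changed by less than 1.5-fold between conditions in 19 pairs, with a median change of 1.17-fold. Some genes enter several pairs. The same count was not made for pairs of genes that share no complex, so it does not show that partners keep their ratio more than other genes. The largest change was that of ERCC1-XPF: *Ercc1* stood 7.02-fold above *Ercc4* in ESCs and 2.70-fold above it in NCs. *Ercc2* stood 7.69-fold above *Ercc3* in ESCs and 4.34-fold in NCs.

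The order of the partners turned in 7 pairs. *Atr* and *Atrip*, the gene of its obligate partner, were level in ESCs (12.7 and 12.4 FPKM), and in NCs *Atr* was at 8.65 FPKM against 12.8 FPKM for *Atrip*. *Rad51b* against *Xrcc2* went from a ratio of 1.04 to 0.648. Another 4 turned pairs, *Rad51d*/*Xrcc2*, *Xrcc4*/*Lig4*, *Xrcc5*/*Xrcc6* and *Brca2*/*Palb2*, had partners near each other in level, and the widest gap among them was 1.22-fold (*Xrcc2* over *Rad51d* in NCs). Close to a constant ratio were *Fancd2* and *Fanci* (1.12 and 1.26), *Rad51c* and *Rad51d* (1.64 and 1.503), and *Prkdc* with *Xrcc5*, whose level was about 9.39 times that of *Prkdc* in both conditions.

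**Figure D4:**
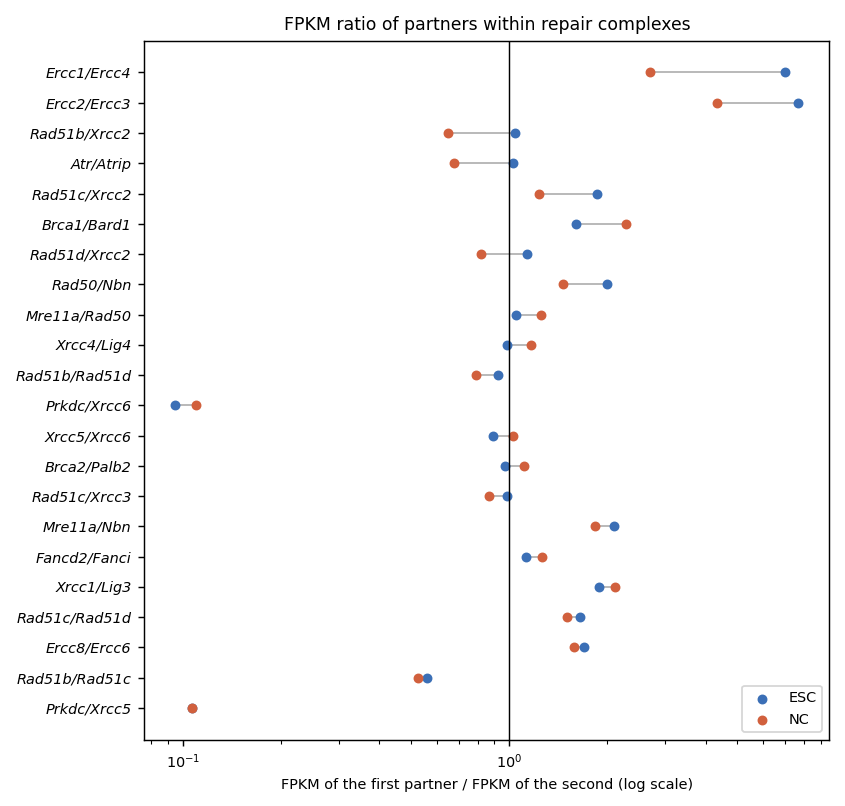
FPKM of the first partner divided by that of the second, on a log axis, in ESCs (blue) and NCs (orange), for 22 of the 26 pairs, ordered by the size of the change. *Ercc1*/*Ercc4* is at the top, at 7.02 in ESCs and 2.70 in NCs, and points on different sides of the line at 1 mark pairs whose order turned.

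A further list of 110 repair genes outside the symbol rule was counted in the same way, and 109 of them had a mean of at least 1 FPKM. Their median log2 ratio was -0.16, and 0.13 once FPKM were divided by their total. At least 2-fold lower were 4 (3.67%, against 9.93% of all genes), and at least 2-fold higher were 3 (2.75%, against 11.1% of all genes). The lower ones were *Hormad1*, a meiotic chromosome axis gene (8.56 FPKM in ESCs against 2.08 in NCs), *Neil2*, a DNA glycosylase gene of base excision repair (9.08 and 2.52 FPKM), *Hltf*, a helicase-like gene of fork bypass (21.3 and 10.0 FPKM), and *Rif1*, which shields broken ends from resection (55.8 and 26.45 FPKM). The higher ones were *Eme2*, a partner of the MUS81 nuclease (1.19 and 4.56 FPKM), *Rev3l*, the catalytic subunit of the bypass polymerase zeta (5.598 and 15.4 FPKM), and *Gen1*, a resolvase gene for recombination junctions (4.14 and 8.38 FPKM).

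Genes of proliferation were set beside the repair genes, since many repair genes follow the cell cycle. Of 30 replication genes, 23 had a ratio below that of the median gene, with a median log2 ratio of -0.35, and *Orc1* alone was at least 2-fold lower (36.4 and 17.5 FPKM). All 16 mitosis genes lay below the median gene, with a median of -0.32, and none was at least 2-fold lower or higher. The median of the repair genes, -0.31, lay near both. The part of proliferation in the repair values was not tested.

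**Figure D5:**
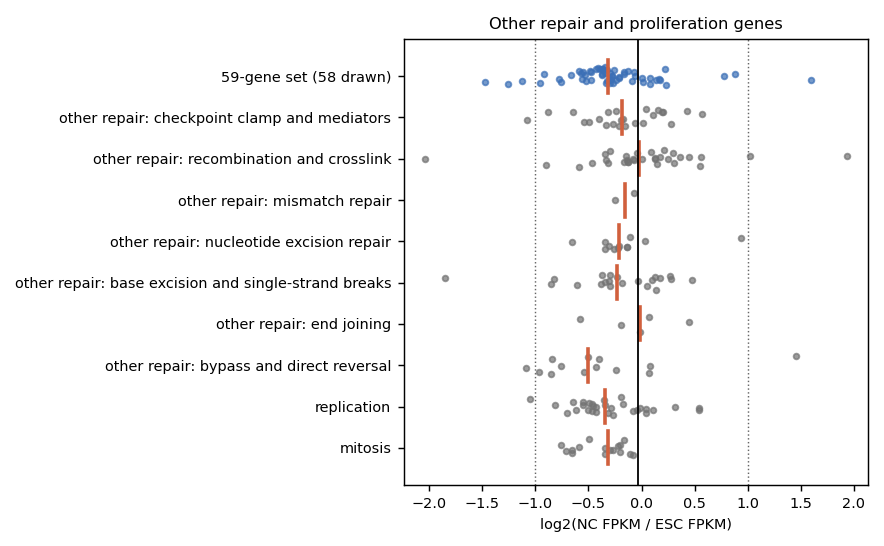
log2(NC FPKM / ESC FPKM) of each gene with a mean of at least 1 FPKM, for the 58 repair genes (blue), further repair genes by route, and replication and mitosis genes (grey), with medians as short bars, the median of all genes (-0.04) as a line and the 2-fold limits dotted. *Hormad1* is the point farthest left and *Eme2* the one farthest right.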

How the data were processed

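RNA-seq of 3 ESC and 3 NC samples was analysed. Per the labels and the methods, the authors aligned reads to mm10 with TopHat 2.0.8 and Bowtie 2.1.0, assembled and normalized transcripts with Cufflinks 2.0.2, merged them with Cuffmerge and ran Cuffdiff. The deposited FPKM values, 1 per gene and condition, were used. The NC heading reads FPK and was taken as FPKM. The log2 fold changes, test statistics, p-values and q-values of the authors' own comparison were not used.

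With 1 FPKM value per condition no test could be made from the values used. Genes with a mean of at least 1 FPKM were compared as NC over ESC without a pseudocount, and called at 2-fold, the fold limit of the study. Members and lists were chosen with earlier results of these data known. Every member may be named. Of other genes, the rule names repair genes at least 2-fold changed, partners and markers. *Orc1* and the genes that overlap a member were added after their values were seen. Positions, transcripts and overlaps came from GENCODE M21 (GRCm38, as mm10) and promoters from RefSeq (GRCm38.p6). The 2-fold limit was not tested against the spread between replicates, which is unknown.

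Depth per sample is not in the table. The lowest FPKM of genes with a single transcript lay on steps that make 1 fragment per kilobase worth 0.0119 or 0.0138 FPKM (ESC) and 0.00715 or 0.0135 FPKM (NC), with fragments of 200 bases assumed. Fragments were counted with the larger step and the longest transcript, so their numbers are estimates. The larger step lowers them and widens the intervals, while the longest transcript raises them and narrows the intervals. The 95% exact binomial (Clopper-Pearson) intervals cover counting error only, not the spread between replicates. Values were computed in Python 3.11.15 with pandas 2.3.3, scipy 1.17.1 and numpy 2.4.6, and plotted with matplotlib 3.10.9. Other scalings, pseudocounts, filters, fold limits and promoter windows were tried. Some genes of the set are not reported here one by one and are left out of the plots of single genes.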

Additional observations from a re-analysis of the deposited data

How the results depend on the processing

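No paired analysis was possible because the table holds 1 value per condition, and for the same reason no replicate could be left out. With FPKM divided by their sum, 1 repair gene (*Msh6*) was at least 2-fold lower and 3 (*Ercc4*, *Fancf* and *Xpa*) at least 2-fold higher, the median log2 ratio was -0.019 for the repair genes, 0.13 for the other repair genes, -0.054 for replication and -0.023 for mitosis genes, and 2 other repair genes and 0 replication genes were at least 2-fold lower. Division by the upper quartile also left 2 other repair genes and 0 replication genes at least 2-fold lower. Under either scaling, the share of all genes past the limit was not computed. With a 1.5-fold limit, 9 repair genes were lower (15.5%, against 18.8% of all genes) and 3 were higher, against 19.3% of all genes. Lower at this limit were 16 of 109 other repair genes (14.7%), 5 of 30 replication genes (16.7%) and 5 of 16 mitosis genes (31.25%). A pseudocount of 1 changed the shift of *Ercc1*/*Ercc4* from -1.38 to -1.09 on the log2 scale. Centring, a pseudocount of 0.1, summed names and a mean of at least 5 FPKM kept the 4 calls. Without the filter *Msh4* was added. The spread between replicates stays unknown, so no difference here is shown to exceed it.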

Other observations

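Besides *Ercc2* and *Fanci*, 5 genes of the set share over 10% of their exon bases with a gene on the other strand, and the values of several of these neighbours are in the table. *Lrrc41*, opposite *Rad54l*, had 19.1 FPKM in ESCs against 26.1 in NCs. *Gas2*, opposite *Fancf*, had 3.52 and 3.18 FPKM, *Vrk2*, opposite *Fancl*, 8.43 and 10.6 FPKM, and *Zfp276*, opposite *Fanca*, 1.59 and 2.28 FPKM. *2010111I01Rik*, opposite *Fancc*, had 1.79 and 0.908 FPKM. The part of these overlaps in the values was not tested.

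The markers of meiosis went in both directions. *Sycp3*, of the synaptonemal complex, had 41.1 FPKM in ESCs against 8.73 in NCs, 4.71-fold lower. *Rec8*, the meiotic cohesin subunit, had 17.0 and 59.8 FPKM, 3.52-fold higher, and *Dazl* had 4.35 and 9.46 FPKM. *Spo11*, which makes the programmed breaks of meiosis, was at 0.0158 and 0.104 FPKM.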
